A study of Homo sapiens with 8 samples.

Results

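The 10 genes described here encode proteins of insulin and insulin-like growth factor (IGF) signalling: the ligand IGF1, its carriers IGFBP1, IGFBP2, IGFBP3, IGFBP4 and IGFALS, the receptors IGF1R and INSR, and the receptor adaptors IRS1 and IRS2. They were chosen by symbol from a table of 26716 genes, in which all 10 were found. Of these, 8 had enough counts to be tested, and IGF1 and IRS2 did not. The cells were HepG2, a human hepatocellular carcinoma line, and poly(A) RNA of 8 libraries was sequenced with reads of 50 bases. The 4 groups of 2 libraries each received a pair of reagents for 72 h. NC received a control mimic (1 nM) and a control siRNA (30 nM), and miR-552-3p received the miR-552-3p mimic (1 nM) and the control siRNA (30 nM). siIPO8-NC received the control mimic (1 nM) and the importin8 siRNA (30 nM), and siIPO8-miR-552-3p received the mimic (1 nM) and the importin8 siRNA (30 nM). Every group was thus transfected with a mimic and an siRNA, and no untransfected cells were analysed here. These groups are called below the controls, the mimic alone, the siRNA alone and both.

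In this pathway insulin and the IGFs bind the receptor tyrosine kinases INSR and IGF1R, which phosphorylate the adaptors IRS1 and IRS2 and so engage PI3 kinase and AKT. AKT keeps the FOXO transcription factors out of the nucleus, so that in liver insulin lowers FOXO-driven genes such as IGFBP1 and IRS2. The liver is the main source of circulating IGF1, which travels bound to IGFBPs. IGFBP3 and the acid-labile subunit IGFALS form the long-lived carrier complex, while IGFBP1 is a short-lived carrier that rises on fasting and cell stress.

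The mimic copies the microRNA whose mature sequence in RefSeq (GRCh38.p14, chr1:34669614-34669634, minus strand, gene MIR552) is shown with its seed, bases 2 to 8, in capitals.
hsa-miR-552-3p: aACAGGUGacugguuagacaa
A perfect match to that seed reads CACCTGT in a transcript written as DNA. In 1 coding transcript per gene (the longest marked APPRIS principal in GENCODE release 29, GRCh38), 15.2% of 18923 3′ UTRs held such a match, at a median UTR length of 872 bases. IGFBP1 and INSR held 1 match each and IGF1R held 2, in UTRs of 577, 429 and 7088 bases. Other transcripts of a gene, which can have longer or shorter 3′ UTRs, were not searched. These 4 matches are shown, with the match in capitals and its first and last base counted from the start of the UTR, because IGF1R and INSR fell and IGFBP1 rose with the mimic and control siRNA.
IGFBP1, bases 488 to 494: tgtggtgatgttgcCACCTGTtaaaatg
IGF1R, bases 5794 to 5800: ttttttttttaggaCACCTGTttactag
IGF1R, bases 6605 to 6611: acgcccggtgaaaaCACCTGTctgcttt
INSR, bases 316 to 322: agatggaaagaaagCACCTGTttttaca
No match lay in the 3′ UTRs of IGFBP2, IGFBP3, IGFBP4, IGF1, IGFALS and IRS1. A match is a run of letters and was not tested as a binding site.

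Each library held 21608563 to 22102373 expected counts. IPO8, the target of the siRNA, was at 34.7 and 33.3 CPM (counts scaled to a common library size after TMM normalisation) in the controls and at 11.3 and 11.5 CPM with the siRNA alone. The siRNA lowered it by 1.57 on the log2 scale (adjusted p = 4.5e-07), and with the mimic alone it was at 25.4 and 24.6 CPM. The mimic also lowered IPO8, by 0.44 with control siRNA and by 0.52 with importin8 siRNA. With the mimic the siRNA lowered it by 1.65 (adjusted p below 0.05 for each). Here and throughout, p-values come from edgeR's quasi-likelihood test with Benjamini-Hochberg adjustment over all 17715 genes tested, and a gene was called when the adjusted p was below 0.05. Albumin and 7 other hepatocyte genes, which the labelled cell type should express, summed to 59800 to 65900 CPM in the controls, 47200 to 48200 with the mimic alone, 61300 to 63500 with the siRNA alone and 68400 to 72200 with both. The sums hide opposite moves. With the siRNA alone ALB, APOA1 and SERPINA1 were called lower and AFP, TTR, HNF4A and TF higher, and APOB did not pass. With the mimic alone AFP and TF did not pass and the others were called lower. TTR averaged 277 CPM in the controls, 55.5 with the mimic alone, 627 with the siRNA alone and 272 with both. Of 8 fibroblast markers, DCN and LUM had at most 1 count in any library, PDGFRB and COL1A1 moved in opposite directions with the mimic alone (15.3 to 5 and 0.31 to 3.41 CPM on average), and the list summed to 12.9 to 19.9 CPM in the controls, 8.57 to 9.44 with the mimic alone, 9.17 to 9.96 with the siRNA alone and 9.37 to 10.5 with both. The 7 endothelial and blood markers, nearly all of it LYZ, summed to 2080 to 2470 CPM in the controls, 882 to 898 with the mimic alone, 1880 to 1910 with the siRNA alone and 1420 to 1430 with both, with the leukocyte marker PTPRC at a mean of 0.166 to 0.276 CPM. Within that list PECAM1, VWF and LYZ fell with the mimic alone, while CD79A rose from 0.289 to 12.8 CPM on average. CDH5 rose from 0.0669 to 2.87 CPM with the siRNA alone. COL1A1 was also higher with the siRNA alone, at 2.18 CPM, as it was with the mimic alone. CD79A, CDH5 and COL1A1 had few counts in the controls and entered the test through groups in which they were higher. No p is given for them. The part of these markers in the results was not tested. The series states 2 experiments per group without saying that they were separate cultures, and the p-values then reflect only how these libraries vary, which may be technical. In bulk RNA, fewer cells of a kind and less RNA per cell cannot be told apart.

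With the mimic and control siRNA, against the controls, the carriers IGFBP1, IGFBP2 and IGFBP3 and the adaptor IRS1 rose, IGFBP4 rose slightly, and both receptors and IGFALS fell. All 8 tested genes were called, 5 higher and 3 lower, where 58.4% of all genes tested were called (28.9% higher, 29.5% lower). The median of the 8 was 0.99 on the log2 scale, beside -0.01 for all genes. IGFALS entered the test through the groups in which it was higher, so these counts describe the genes and are no test of them. With the mimic under importin8 siRNA, against the siRNA alone, 4 of the 8 rose, 2 fell and 2 did not pass, where 31.7% of all genes were called (15% higher, 16.7% lower). Of all genes called in that comparison 47.2% were higher, and 36.7% when libraries were scaled by their totals alone. The median of the 8 was 0.31, beside 0.00 for all genes.

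The importin8 siRNA with the control mimic, against the controls, raised 3 of the 8 tested genes, lowered 1 and left 4 below the threshold, where 47% of all genes were called (25.4% higher, 21.6% lower). Their median was 0.24, beside 0.00 for all genes. This comparison and the mimic comparison with control siRNA share both NC libraries. Among mimic-treated cells the siRNA comparison called 2 of the 8, 1 higher and 1 lower, where 33.5% of all genes were called (17.3% higher, 16.2% lower), and the median was -0.08 beside -0.01. The difference between both mimic effects was called for 6 of the 8, with 31.3% of all genes, at a median of -0.72 beside -0.02. The plot of levels by library shows every value.

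**Figure D1:**
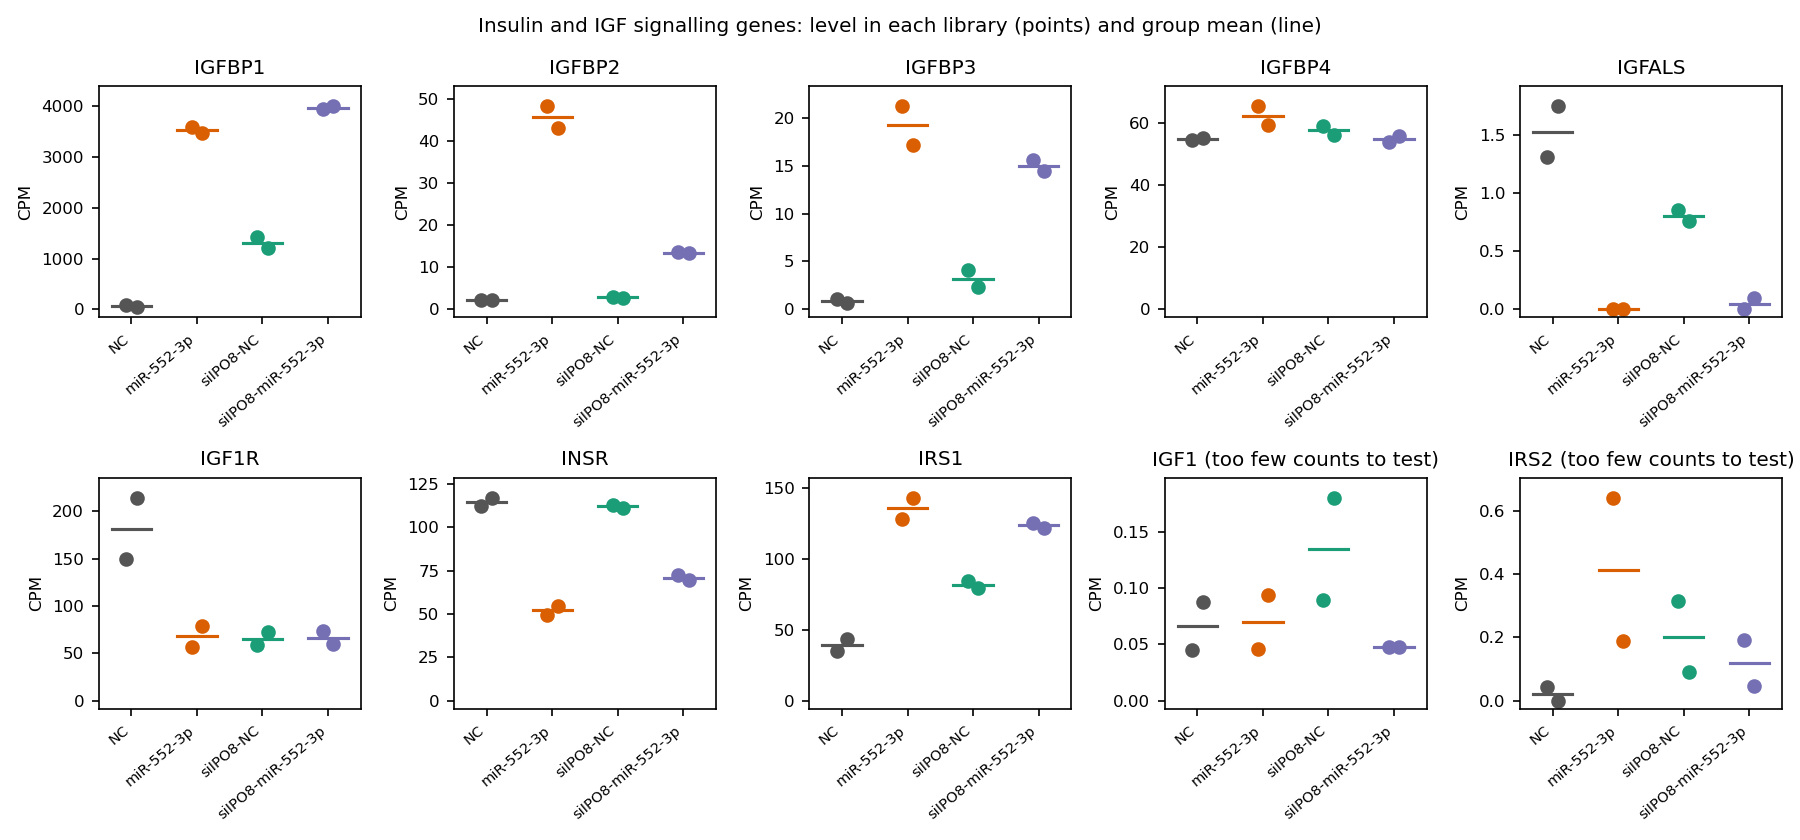
Level of each of the 10 genes (CPM, linear axis) in the 8 libraries, as points, with the mean of the 2 libraries of a group as a line. IGFBP1 lies at 3480 to 4000 CPM in the 4 mimic libraries and at 43 and 91.9 CPM in the controls, while IGF1 and IRS2 stay below 0.7 CPM in every library.

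IGFBP1 (chromosome 7, 45888357 to 45893668, plus strand, GRCh38) encodes the fasting-responsive carrier that insulin suppresses in hepatocytes. It was at 91.9 and 43.0 CPM in the controls, at 3600 and 3480 CPM with the mimic alone, at 1420 and 1200 CPM with the siRNA alone and at 3940 and 4000 CPM with both. The groups did not overlap, and both groups given the mimic lay above the siRNA alone, which lay above the controls. The mimic with control siRNA raised IGFBP1 52.6-fold (log2 5.72, SE 0.39; adjusted p = 6.3e-05). The NC libraries differed 2.14-fold from each other, and that value became 6.36 without NC replicate 1, with 5.27 without NC replicate 2. The importin8 siRNA with the control mimic raised it 19.5-fold (log2 4.28, SE 0.37; adjusted p = 0.00028), with 4.92 and 3.84 without NC replicate 1 or 2.

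Under importin8 siRNA the mimic raised IGFBP1 a further 3.03-fold (log2 1.60, SE 0.32; adjusted p = 0.015). This call held in a fit of those 4 libraries alone (adjusted p = 5.2e-06), and was lost in the 4 fits that each left out a library of the pair compared, at 1.49 to 1.72 and adjusted p = 0.053 to 0.091. The mimic effect was smaller under importin8 siRNA by 4.12 on the log2 scale (SE 0.47; adjusted p = 0.0017), and the difference was -4.75 without NC replicate 1. Among mimic-treated cells the siRNA value was 0.16 (SE 0.31; adjusted p = 0.75). The transcript took 0.00923 and 0.00454% of all counts in the controls and 0.341 to 0.39% in the mimic libraries. By FPKM, the authors' value per length, IGFBP1 ranked 1066 and 2272 of 26716 genes in the controls, 49 and 64 with the siRNA alone, 14 in each library with the mimic alone and 13 and 12 with both.

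IGFBP3 (chromosome 7, 45912245 to 45921874, minus strand) lies 18576 bases from IGFBP1 and encodes the main carrier of IGFs in serum. It was at 1.08 and 0.657 CPM in the controls, 21.2 and 17.2 CPM with the mimic alone, 4.08 and 2.34 CPM with the siRNA alone and 15.6 and 14.4 CPM with both. No groups overlapped. Its order of groups differed from that of IGFBP1 at the top, where the mimic alone lay above both reagents by less than the test could call (siRNA effect with mimic -0.36, SE 0.22; adjusted p = 0.25). The mimic raised IGFBP3 22.1-fold with control siRNA (log2 4.46, SE 0.29; adjusted p = 2e-06) and 4.67-fold with importin8 siRNA (log2 2.22, SE 0.25; adjusted p = 0.00023). The siRNA alone raised it 3.69-fold (log2 1.88, SE 0.33; adjusted p = 0.0017). The difference between both mimic effects was -2.24 (SE 0.40; adjusted p = 0.003). The NC libraries held 24 and 15 counts of it.

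IGFBP2 (chromosome 2, 216632828 to 216664436, plus strand) encodes a carrier that is abundant in fetal liver and in many tumours. It was at 2.21 and 2.15 CPM in the controls, 48.3 and 43.1 CPM with the mimic alone, 3.01 and 2.79 CPM with the siRNA alone and 13.6 and 13.3 CPM with both. The libraries of each group lay close together and no groups overlapped. The mimic raised IGFBP2 20.9-fold with control siRNA (log2 4.39, SE 0.12; adjusted p = 1.9e-09) and 4.63-fold with importin8 siRNA (log2 2.21, SE 0.12; adjusted p = 2e-06). The siRNA with the control mimic gave 0.41 (SE 0.14; adjusted p = 0.064), which did not pass. In 2 of 17 alternative settings it did, both by limma: 0.37 on log2(FPKM + 1) (adjusted p = 0.008) and 0.54 on log2(FPKM + 0.1) (adjusted p = 0.0028). Among mimic-treated cells the siRNA lowered IGFBP2 3.4-fold (log2 -1.76, SE 0.09; adjusted p = 1.4e-06), and the difference between both mimic effects was -2.18 (SE 0.17; adjusted p = 1.2e-05). IGFBP2 and IGFBP1 thus stood apart in the siRNA arms: the siRNA effect with the control mimic was 0.41 for IGFBP2 and 4.28 for IGFBP1, and with the mimic it was -1.76 and 0.16. That contrast between the 2 genes was not itself tested.

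IGFBP4 (chromosome 17, 40443461 to 40457731, plus strand), a carrier that blocks IGF action and is cut by the protease PAPPA, was at 54.7 and 55.3 CPM in the controls, 65.5 and 59.5 CPM with the mimic alone, 59.3 and 56.2 CPM with the siRNA alone and 54.1 and 56.0 CPM with both. The highest and lowest library differed less than in any other tested member, and both libraries with the mimic alone lay just above the other 6. Its rise of 0.18 with the mimic and control siRNA passed (SE 0.07; adjusted p = 0.039), and 11 of 17 alternative settings lost that call. The 17 settings gave 0.11 to 0.25, with adjusted p = 0.024 to 0.25. No other comparison called it.

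IGFALS (chromosome 16, 1790413 to 1794971, minus strand), the acid-labile subunit of the serum complex, had few counts. Its expected counts were 29.04 and 39.82 in the controls, 0 and 0 with the mimic alone, 19.01 and 17.31 with the siRNA alone, and 0 and 1.74 with both. All 4 mimic libraries were thus below all 4 libraries with the control mimic. With 3 counts per library as the floor, IGFALS was at least 11-fold lower with the mimic and control siRNA. Under importin8 siRNA, 36 counts against 2 gave a ratio of 16.9, with an exact 95% counting interval of 4.36 to 145, and the mimic-treated counts there came from replicate 2. The interval and the floor cover counting error alone. No p is given for the mimic effects, because IGFALS passed the filter on low counts through the groups in which it was higher. The siRNA effect with the control mimic, -0.92 (SE 0.56; adjusted p = 0.21), did not pass. IGF1 (chromosome 12, 102395874 to 102481744, minus strand) had expected counts of 0.76 to 4.24 in the 8 libraries, at or near the floor in each group, and no fold is given.

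Both receptors fell with the mimic when the siRNA was the control. Under importin8 siRNA INSR fell again, and IGF1R did not pass. IGF1R (chromosome 15, 98648539 to 98964530, plus strand), the receptor for IGF1 and IGF2, was at 149 and 214 CPM in the controls, 57.0 and 78.7 CPM with the mimic alone, 58.6 and 72.6 CPM with the siRNA alone and 73.5 and 59.5 CPM with both. The NC libraries lay above the other 6, and the other 3 groups overlapped. The mimic lowered IGF1R 2.68-fold with control siRNA (log2 -1.42, SE 0.26; adjusted p = 0.0056), and the siRNA with the control mimic lowered it 2.77-fold (log2 -1.47, SE 0.26; adjusted p = 0.0065). Both of these contrast the same NC libraries. Under importin8 siRNA the mimic value was 0.02 (SE 0.26; adjusted p = 0.97), and among mimic-treated cells the siRNA value was -0.03 (SE 0.26; adjusted p = 0.96). Neither passed, and the sign of each turned in some alternatives. The difference between both mimic effects, 1.44 (SE 0.37; adjusted p = 0.037), lost its call in 6 of the 8 fits that each left out a library, those without NC replicate 2, miR-552-3p replicate 1 or any library with importin8 siRNA, at 1.16 to 1.60 and adjusted p = 0.058 to 0.11. It was also lost with no filter on low counts (1.45; adjusted p = 0.093).

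INSR (chromosome 19, 7112255 to 7294034, minus strand), the insulin receptor, was at 112 and 117 CPM in the controls, 49.6 and 54.9 CPM with the mimic alone, 113 and 111 CPM with the siRNA alone and 72.5 and 69.5 CPM with both. The controls and the siRNA alone overlapped, and the mimic groups lay below both and apart from each other. The mimic lowered INSR 2.19-fold with control siRNA (log2 -1.13, SE 0.07; adjusted p = 3e-07) and 1.58-fold with importin8 siRNA (log2 -0.66, SE 0.07; adjusted p = 6.8e-05). The effects differed by 0.47 (SE 0.09; adjusted p = 0.0039). The siRNA value was -0.03 with the control mimic (SE 0.06; adjusted p = 0.77), and among mimic-treated cells INSR was higher with the siRNA by 0.44 (SE 0.07; adjusted p = 0.00074). IGF1R thus lay lower with the siRNA alone than in the controls where INSR did not pass, and that contrast between the receptors was not itself tested.

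Of the adaptors, IRS1 (chromosome 2, 226731317 to 226799759, minus strand) rose in each active group. It was at 35.1 and 43.5 CPM in the controls, 128 and 143 CPM with the mimic alone, 84.4 and 79.2 CPM with the siRNA alone and 125 and 122 CPM with both. No groups overlapped, though the mimic groups lay close together. The mimic raised IRS1 3.45-fold with control siRNA (log2 1.79, SE 0.10; adjusted p = 2.9e-07) and 1.51-fold with importin8 siRNA (log2 0.59, SE 0.10; adjusted p = 0.0013). The siRNA with the control mimic raised it 2.08-fold (log2 1.06, SE 0.10; adjusted p = 2.3e-05), and with the mimic the siRNA value was -0.14 (SE 0.09; adjusted p = 0.30). The difference between both mimic effects was -1.19 (SE 0.14; adjusted p = 0.00017). IRS2 (chromosome 13, 109752698 to 109786568, minus strand), the adaptor that dominates in fasted liver, had expected counts of 1.11 and 0 in the controls, 13.96 and 4.19 with the mimic alone, 7.15 and 2.06 with the siRNA alone and 3.78 and 1.07 with both. The libraries of a treated group differed several-fold, the siRNA alone overlapped both groups given the mimic, and the controls overlapped the group with both. With no filter on low counts IRS2 passed for the mimic and control siRNA (adjusted p = 0.034), and with DESeq2 it did not (DESeq2 adjusted p = 0.1). It also entered fits that left out a library, through a mimic library in which it was higher, and no p is given for those. With the controls at 1.11 and 0 counts no fold is given.

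**Figure D2:**
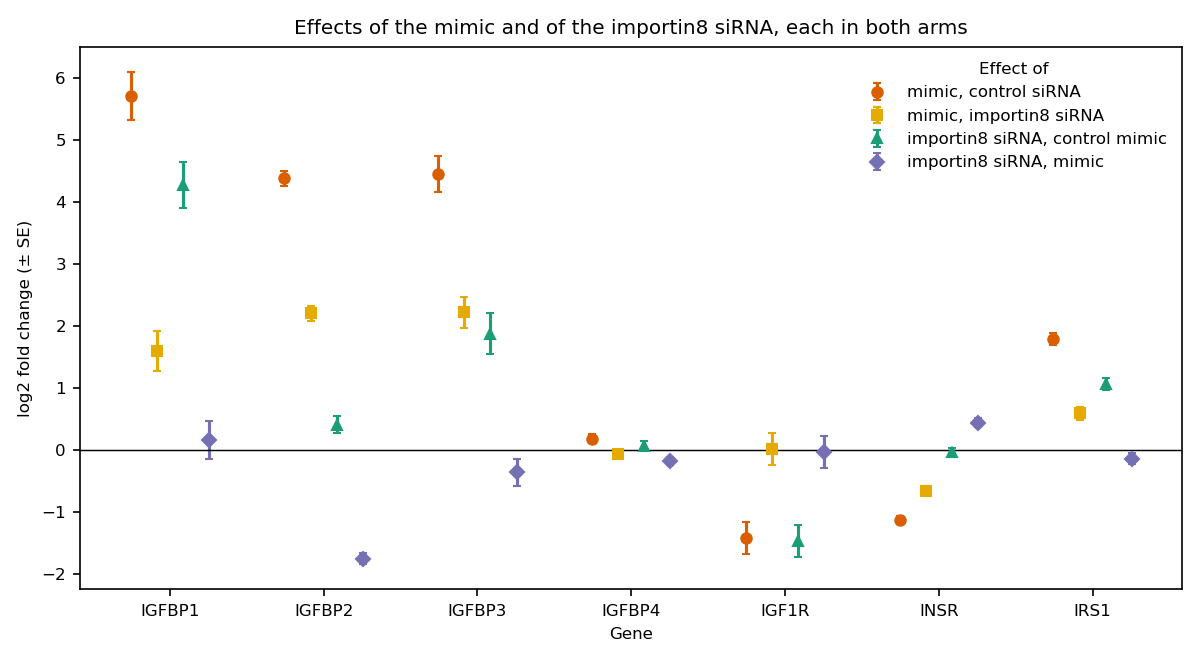
Log2 fold change (± SE, edgeR) of 7 genes for each reagent in the presence of the other or of its control, 4 comparisons in all. IGFBP1 shows 5.72 and 4.28 for either reagent alone and 1.60 and 0.16 for either added to the other, IGFBP2 shows 0.41 and -1.76 for the siRNA, and IGFALS is left out because its fold depends on libraries with no counts.

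Levels of different genes were compared by FPKM. In the controls the order was IGFBP1 at a mean of 43.6 FPKM, IGFBP4 at 25.4, IGF1R at 17.53 and 26.55 in its libraries, INSR at 13.1, IRS1 at 5.16, IGFBP2 at 1.58, IGFALS at 0.74 and IGFBP3 at 0.43, with IGF1 at 0.015 and IRS2 listed at 0. IGFBP1 and IGF1R each had an NC library near the level of IGFBP4 (28.79 FPKM in NC replicate 2 for IGFBP1 and 26.55 for IGF1R), so the top of this order was within the spread. With the mimic alone it was IGFBP1 at 2210 FPKM, IGFBP2 at 34.0, IGFBP4 at 27.5 and IRS1 at 16.7, with IGF1R and IGFBP3 at 8.65 and 8.61, INSR at 5.73, IRS2 at 0.03, IGF1 at 0.025 and IGFALS listed at 0. There the libraries of IGF1R and IGFBP3 overlapped. Of the FPKM summed over IGFBP1 to IGFBP4, IGFBP1 made up 68.7 and 50.6% in the NC libraries and 96.4 to 98.4% in the other 6. IRS1 over INSR was 0.363 and 0.422 in the controls, 2.97 and 2.88 with the mimic alone, 0.86 and 0.821 with the siRNA alone and 1.94 and 1.91 with both. The adaptor thus passed its receptor in the mimic libraries and stayed below it in the others. IGF1R over INSR was 1.43 and 1.91 in the controls, 1.36 and 1.64 with the mimic alone, 0.591 and 0.658 with the siRNA alone and 1.05 and 0.838 with both. The first 2 groups overlapped, and both siRNA groups lay below them.

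A wider list of 66 genes of the pathway held 59 that were tested. Of these, 22 rose and 18 fell with the mimic and control siRNA (67.8%, beside 58.4% of all genes; median 0.15, beside -0.01), and 14 rose and 11 fell with the mimic and importin8 siRNA (42.4%, beside 31.7%; median 0.06, beside 0.00). The siRNA raised 15 and lowered 19 with the control mimic (57.6%, beside 47%) and raised 7 and lowered 15 with the mimic (37.3%, beside 33.5%). Among its ligands and their processing enzymes, IGF2, the fetal IGF that liver tumour cells express, was at 2550 CPM on average in the controls and with the mimic alone, and at 6160 and 5680 CPM with the siRNA alone and with both. The siRNA raised it by 1.27 with the control mimic (SE 0.09; adjusted p = 3.7e-06) and by 1.16 with the mimic (SE 0.09; adjusted p = 1.4e-05), and the mimic values of 0.00 and -0.12 did not pass. FURIN, the convertase that cleaves the insulin receptor and IGF precursors, was at 276 CPM in the controls, 46.0 with the mimic alone, 102 with the siRNA alone and 99.6 with both, a fall of 2.59 with the mimic and control siRNA (adjusted p = 5.6e-09) beside -0.04 with importin8 siRNA (adjusted p = 0.77). IGFBP6, a carrier that prefers IGF2, rose by 1.31 with the siRNA and control mimic (adjusted p = 1.7e-05), and the mimic lowered it by 1.08 under importin8 siRNA (adjusted p = 0.00014).

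Of 13 tested adaptors and receptor inhibitors, 4 rose and 6 fell with the mimic and control siRNA (76.9%, beside 58.4% of all genes). GRB10, which binds and restrains both receptors, went from 5.31 to 35.6 CPM on average (log2 2.74, SE 0.13), ENPP1, an inhibitor of the insulin receptor, from 92.0 to 401 CPM (log2 2.12, SE 0.07), and the adaptor SHC1, which links receptors to RAS, from 90.2 to 346 CPM (log2 1.94, SE 0.07). Under importin8 siRNA the same mimic raised ENPP1 by 1.17, GRB10 by 1.02 and SHC1 by 0.85, and lowered SOCS1, a feedback inhibitor, by 1.78. The difference between both mimic effects was called for GRB10 (-1.73; adjusted p = 6.9e-05), SHC1 (-1.09; adjusted p = 2.5e-05) and ENPP1 (-0.96; adjusted p = 6.5e-05). As with IRS1, these 3 genes rose in both siRNA arms and by less under importin8 siRNA.

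**Figure D3:**
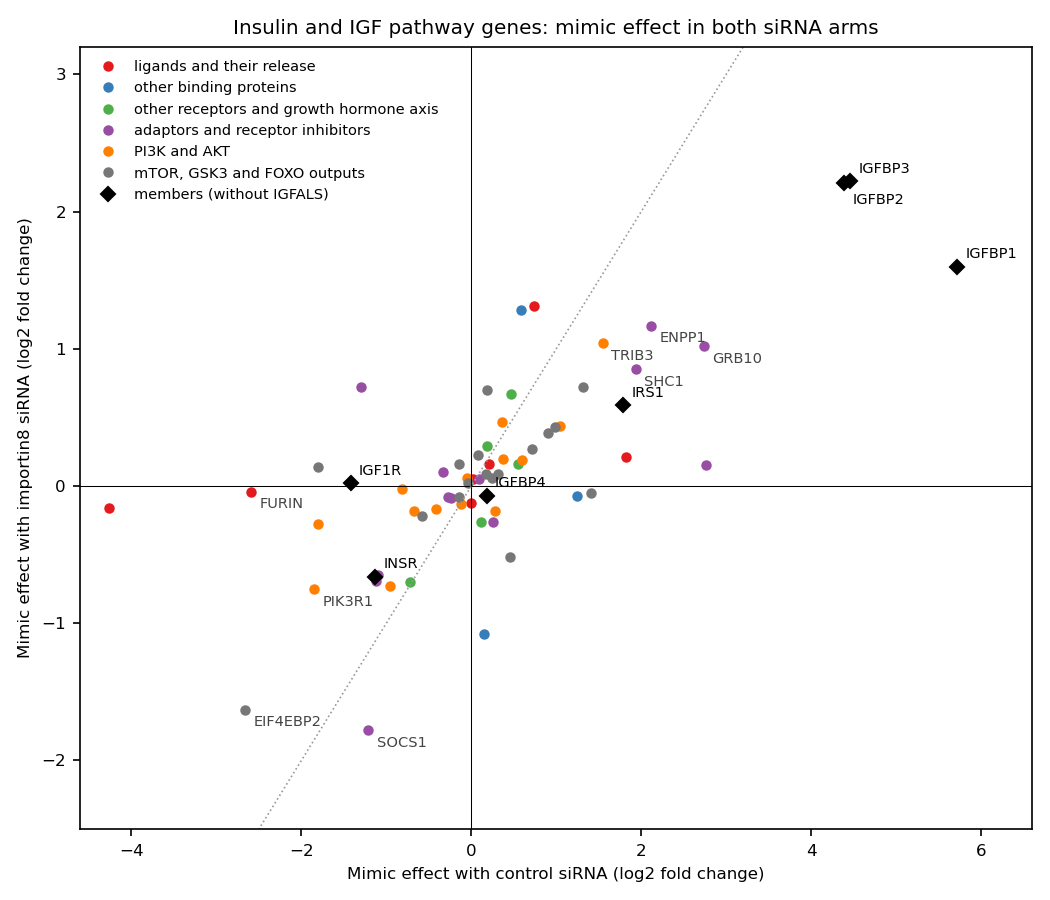
Mimic effect (log2 fold change) with control siRNA on the horizontal axis and with importin8 siRNA on the vertical axis, for the 59 tested genes of the wider list, coloured by role, and for 7 of the 10 genes as diamonds. The dotted line marks equal effects; IGFBP1, IGFBP2 and IGFBP3 lie far right of it, at 5.72, 4.39 and 4.46 against 1.60, 2.21 and 2.22.

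Of 14 tested genes of PI3 kinase and AKT, 6 rose and 6 fell with the mimic and control siRNA (85.7%, beside 58.4% of all genes). PIK3R1, the main regulatory subunit of PI3 kinase, fell by 1.85 and the AKT phosphatase PHLPP1 by 1.81, while TRIB3, a stress-induced AKT inhibitor, rose by 1.55. Under importin8 siRNA PIK3R1 fell by 0.75 and PIK3R2, another regulatory subunit, by 0.73, and TRIB3 rose by 1.04. Of 17 genes of mTOR, GSK3 and FOXO outputs, 8 rose and 3 fell with the mimic and control siRNA (64.7%, beside 58.4% of all genes). EIF4EBP2, a translation repressor that mTOR phosphorylates, fell from 161 to 25.6 CPM on average (log2 -2.66; adjusted p = 2.1e-09) and under importin8 siRNA from 149 to 48.2 CPM (log2 -1.63; adjusted p = 5.9e-07). EIF4EBP1, of the same family, rose with the mimic and control siRNA (log2 0.98; adjusted p = 5.7e-07) and under importin8 siRNA (log2 0.43; adjusted p = 7e-04). DDIT4 rose with the mimic and control siRNA (log2 1.41; adjusted p = 1.7e-07), and its value of -0.05 under importin8 siRNA did not pass. FOXO1, which drives IGFBP1 in fasted liver, was at 26.9 CPM in the controls, 37.0 with the mimic alone, 88.3 with the siRNA alone and 61.7 with both. The siRNA raised FOXO1 by 1.71 with the control mimic (adjusted p = 1.7e-07) and by 0.74 with the mimic (adjusted p = 6.3e-05), and the mimic lowered it by 0.52 under importin8 siRNA (adjusted p = 0.00058). The mimic with control siRNA raised it by 0.46 (adjusted p = 0.00071). FOXO4, another FOXO factor, went the other way, from 44.5 CPM in the controls to 12.7 with the mimic alone (log2 -1.81; adjusted p = 5.4e-07) and 9.72 with the siRNA alone (log2 -2.19; adjusted p = 5.1e-07), and was at 10.7 CPM with both.

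Genes known to respond to FOXO moved both ways. Of 12 tested, 4 rose and 6 fell with the mimic and control siRNA (83.3%, beside 58.4% of all genes; median -0.17, beside -0.01), and 3 rose and 3 fell with the mimic and importin8 siRNA (50%, beside 31.7%; median 0.06, beside 0.00). The siRNA raised 3 and lowered 5 with the control mimic (66.7%, beside 47%; median -0.14, beside 0.00) and raised 5 and lowered 4 with the mimic (75%, beside 33.5%; median 0.18, beside -0.01). In the first of these GADD45A, a growth arrest gene, rose by 2.27 and CCNG2, a cyclin of quiescent cells, by 1.19, while the repressor BCL6 fell by 1.57. PCK1, a gluconeogenic enzyme that insulin suppresses as it does IGFBP1, was at 65.6, 35.6, 133 and 87.9 CPM on average in the controls, with the mimic alone, with the siRNA alone and with both. PCK1 and IGFBP1 were thus both higher with the siRNA alone than in the controls (log2 1.02 and 4.28), and they had opposite signs with the mimic and control siRNA (-0.88 and 5.72). GADD45A had values of 2.27, 0.60, 1.38 and -0.29 in the 4 comparisons where IGFBP1 had 5.72, 1.60, 4.28 and 0.16. Other genes of the list ran differently in the same 4 comparisons. G6PC, with a mean of 76.12 counts, had -3.55, -2.02, -0.59 and 0.95, and PPARGC1A had -1.16, -0.61, 0.08 and 0.62.

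RefSeq promoter sequences, 250 bases before to 50 after a start site (GRCh38.p14), were found for 9 of the 10 genes, with 12 starts in all; IGFBP1 is the gene without an entry. They were searched on both strands for CAAAACA, a form of the insulin response element, GTAAACA, bound by FOXO factors, and TATAAA. These motifs lay in 4.92, 3.42 and 11.5% of all 35116 promoters, and the matches among the members lie in different genes, so none overlaps another. Of the 12 promoters, 1 held each motif: IRS2 held CAAAACA on the minus strand at bases -40 to -34 from the start, IGF1 held GTAAACA at -247 to -241, and IGFBP4 held TATAAA at -29 to -24. The absence of a match says only that these letters are not in this window.

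For the 3 tested genes with the widest range of group means, the genes with the most similar group means were sought among 10659 others with a usual symbol and a mean of at least 100 counts. Likeness was the root mean square difference of the 4 centred group means in log2 CPM, so that it rests on 4 groups of 2 libraries. A prior count of 2 was added before the log. For IGFBP1, with a range of 5.98, the nearest were KRT37, a hair keratin (0.33), ANKRD1, an ankyrin repeat protein first known from muscle (0.37), and SLC16A6, a monocarboxylate carrier (0.38). KRT37 was at -2.27 log2 CPM in the controls, near the floor, so its likeness there depends on the prior count. For IGFBP3, with a range of 4.36, they were INHBB, a subunit of inhibins and activins (0.16), SLC43A3 (0.22) and F2RL1, a protease-activated receptor (0.25). For IGFBP2, with a range of 4.33, they were PAX6, a developmental transcription factor (0.071), TMEM156 (0.17) and LARP6, an RNA-binding protein (0.20). None of the 3 genes had another of the 3 among its nearest.

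**Figure D4:**
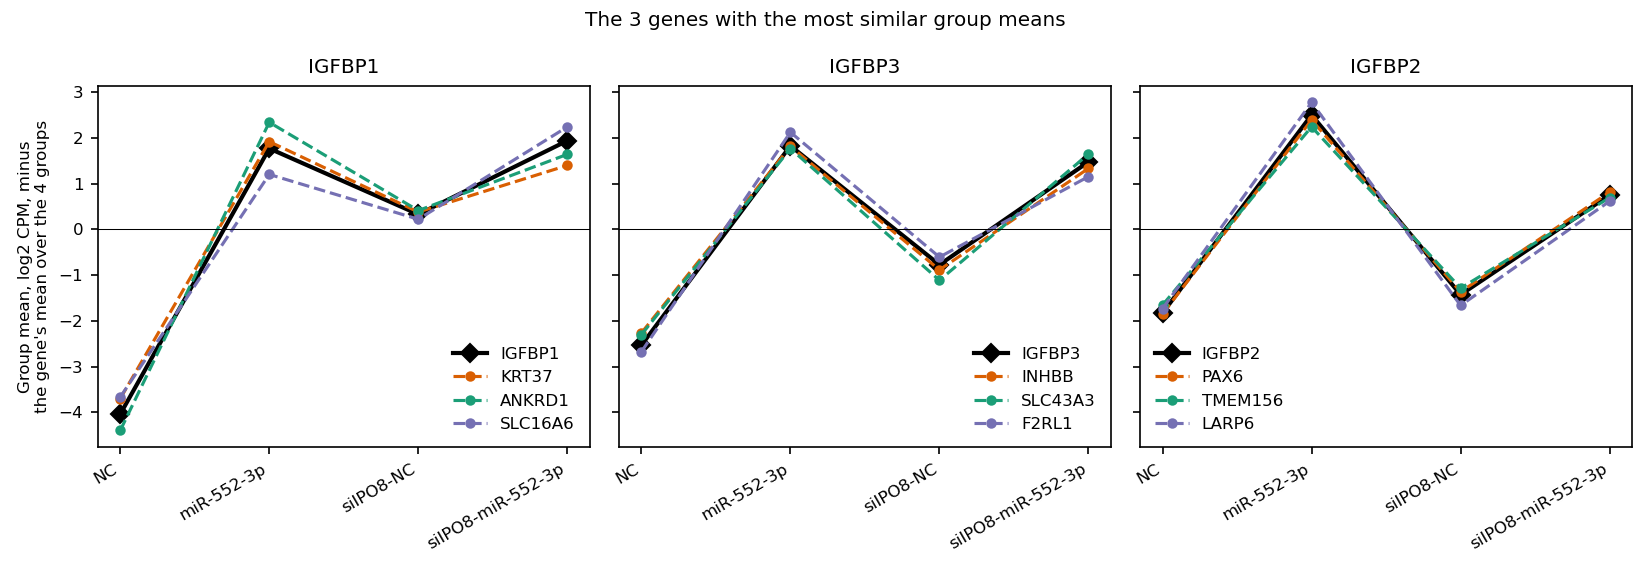
Group means in log2 CPM, each minus the gene's mean over the 4 groups, for IGFBP1, IGFBP3 and IGFBP2 (black diamonds) and for the 3 genes with the most similar group means (coloured, dashed). Lines join the groups to guide the eye and imply no order; IGFBP1 has its lowest mean in the controls and similar means in both mimic groups, while IGFBP2 has similar means in the controls and with the siRNA alone.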

How the data were processed

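Per the file headers, the deposited table gives a read count and an expression value per gene and library. The read counts are expected counts, since many are not whole, and the deposited expression values behave as FPKM from their relation to count and depth. The submitters' processing notes name HISAT2 2.0.4, Bowtie2 2.2.5, RSEM 1.2.8 and GRCh38.p12, without roles; the use of strand is unstated. Column names are abbreviations, read as the titles: 51 and 52 after NC or SI were taken as the mimic libraries. Expected counts were rounded, filtered with filterByExpr (17715 genes kept), scaled by TMM (factors 0.961 to 1.06) and fitted by edgeR 4.0.16 with 1 coefficient for each group (robust quasi-likelihood). The script was tested on simulated data. The SE, an approximation, divides the size of the log2 fold change by the root of its F statistic. Expected counts share reads among genes of similar sequence. In no group were the libraries as close as sampling alone would make them (chi-square over its degrees of freedom, 4.53 to 10.6).

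The 10 genes and the lists were chosen with earlier results of these data known, so no list is independent support. Named genes outside the 10 were taken from, per role and comparison, the 3 called with the largest log2 fold change among those with a mean of at least 100 counts. FOXO1 and EIF4EBP1 with the mimic and control siRNA, SHC1 under importin8 siRNA, and values given beside a called one to complete a comparison, were added after their values were seen. G6PC, below that mean count, was added in the same way. The search for seed matches was also added later. Its result for 1 of the 10 genes is not reported here. Alternatives were other filters, scalings, tools (DESeq2 1.42.0, limma 3.58.1), subsets of libraries, FPKM with a pseudocount, and a replicate block. The list gene INS and the marker HBB were not analysed here.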

Additional observations from a re-analysis of the deposited data

Results flagged for a closer look

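For 6 genes the mimic effect differed between the siRNA arms by a test of the difference itself (edgeR's quasi-likelihood test, Benjamini-Hochberg adjustment over all genes, 31.3% of which were called). The effect under importin8 siRNA minus that under control siRNA was -4.12 for IGFBP1 (adjusted p = 0.0017), -2.18 for IGFBP2 (adjusted p = 1.2e-05), -2.24 for IGFBP3 (adjusted p = 0.003) and -1.19 for IRS1 (adjusted p = 0.00017), genes that rose with the mimic in both arms. It was 1.44 for IGF1R (adjusted p = 0.037) and 0.47 for INSR (adjusted p = 0.0039), which fell with the mimic under control siRNA. The call of IGF1R was lost in 7 of 16 alternative settings, with adjusted p up to 0.11. In all 6 the mimic effect was smaller under importin8 siRNA. Over all genes tested, 58.4% were called for the mimic under control siRNA and 31.7% under importin8 siRNA. Whether a smaller effect is particular to these 6 genes was not tested. Each difference is also, by construction, the siRNA effect with the mimic minus that with the control mimic. Each rests on the 2 NC libraries, which differed 2.14-fold for IGFBP1, 1.64-fold for IGFBP3 and 1.44-fold for IGF1R, and at most 1.24-fold for IRS1, INSR and IGFBP2.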

How the results depend on the processing

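Of 669 values of the 8 tested genes under alternative settings, 630 kept their direction and their side of the threshold, 22 lost a call, 9 gained one and 8 changed sign. The sign changes were of values that did not pass. The mimic value of IGF1R under importin8 siRNA was -0.05 by library totals alone, -0.13 without siIPO8-NC replicate 1 and without siIPO8-miR-552-3p replicate 1, -0.09 on log2(FPKM + 1) and -0.10 on log2(FPKM + 0.1). Its values without a library ran from -0.13 to 0.18. Its siRNA value with the mimic ran from -0.24 to 0.23 without a library, 0.23 without miR-552-3p replicate 2 and 0.12 without siIPO8-miR-552-3p replicate 2. The siRNA value of INSR with the control mimic was -0.07 to 0.01 without a library, 0.01 without NC replicate 2, and the difference between mimic effects on IPO8 was 0.05 on log2(FPKM + 1). Leaving out 1 library at a time, where the lone library is assumed to vary like the others, the mimic under importin8 siRNA called 3545 to 6087 genes (5607 with all), lowest without siIPO8-NC replicate 2 (3545) and without siIPO8-miR-552-3p replicate 1 (3551). The siRNA with mimic then called 13 to 24 genes of the wider list (22 with all), with 13 and 14 without siIPO8-miR-552-3p replicate 2 or 1. In that comparison 4 members were called, in place of 2, when its 4 libraries were fitted alone, IGFBP1 at 0.16 (adjusted p = 0.043) and IGFBP3 at -0.36 (adjusted p = 0.039) in addition. In settings that kept all libraries compared, 7 or 8 members were called with the mimic and control siRNA. IGFBP4 lost its call where the count was 7. With no filter on low counts IGFBP4 lost its call and IRS2, near the floor in the controls, passed. With the replicate number as a block, 10424, 5847, 8496, 6121 and 5786 genes were called in the 5 comparisons, in the order of the report, against 10341, 5607, 8329, 5934 and 5551 without the block. Deviations of equally numbered libraries correlated at -0.0651 to 0.124 over 11484 genes, so the number was not taken as a pairing. On log2(FPKM + 1) low genes shrank, and the mimic value of IGFBP3 with control siRNA became 2.74. Depth limits IGFALS, IGF1, IRS2 and the NC level of IGFBP3.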
